A study of Mus musculus with 24 samples.

Results

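The genes described here are 10 components of Wnt signalling in the mouse lens: the secreted antagonists Sfrp1 and Sfrp2, the related secreted protein Dkk3, the receptors Fzd1, Fzd3 and Fzd6, the co-receptors Lrp5 and Lrp6, the feedback inhibitor Axin2, and Ctnnb1, which encodes beta-catenin. They were listed by symbol, and their rows were found by Entrez gene identifier. All 10 were present among the 24415 genes of the count table. RNA was sequenced from C57BL/6 lens epithelia and from cortical fiber cells in 6 groups of 4 libraries: untreated wild type (WT), untreated LEGSKO, and LEGSKO given buthionine sulfoximine (LEGSKO+BSO), each in both tissues. The series describes LEGSKO lenses as mildly and LEGSKO+BSO lenses as severely short of glutathione. LEGSKO mice are known to lack Gclc in the lens. Gclc encodes the catalytic part of glutamate-cysteine ligase, which starts glutathione synthesis and which BSO inhibits. Because BSO was given only to LEGSKO animals, its effect in a WT lens is not measured. The sources used here do not give age, the Cre driver behind the knockout, the dose of BSO or whether each library is a separate animal, so p-values measure only the spread between these libraries, which may be technical.

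Wnt proteins bind a Frizzled receptor together with the co-receptor Lrp5 or Lrp6. That binding stops a complex containing Axin from marking beta-catenin for destruction, and beta-catenin then enters the nucleus and activates target genes with TCF/LEF factors, Axin2 among them. Other branches, such as planar cell polarity, use Frizzled receptors without beta-catenin. Secreted frizzled-related proteins bind Wnts outside the cell and Dickkopf proteins act on the co-receptors, although Dkk3 is a divergent Dickkopf whose action on Wnt signalling is less clear. In the lens, Wnt signalling is known to be needed for a normal epithelium, and planar polarity signalling for the orderly alignment of fibers.

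Of the 10 genes, 4 had an entry in the RefSeq promoter table of build GRCm38.p6: Sfrp2, Fzd1, Axin2 and Ctnnb1. Sfrp1, Dkk3, Fzd3, Fzd6, Lrp5 and Lrp6 had none. The promoter of Fzd1 is shown because Fzd1 was 1 of the 2 genes that edgeR called between conditions. That of Axin2 is shown because Axin2 is the standard reporter of beta-catenin activity. Each is the 250 bases before an annotated start, written 5′ to 3′ in the direction of transcription, with capitals for the TCF/LEF core CTTTGA on either strand.
Fzd1: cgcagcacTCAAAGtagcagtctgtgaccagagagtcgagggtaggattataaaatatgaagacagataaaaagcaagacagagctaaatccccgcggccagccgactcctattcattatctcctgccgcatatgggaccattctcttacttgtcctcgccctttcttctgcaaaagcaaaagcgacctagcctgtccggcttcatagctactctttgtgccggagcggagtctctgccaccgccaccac
Axin2: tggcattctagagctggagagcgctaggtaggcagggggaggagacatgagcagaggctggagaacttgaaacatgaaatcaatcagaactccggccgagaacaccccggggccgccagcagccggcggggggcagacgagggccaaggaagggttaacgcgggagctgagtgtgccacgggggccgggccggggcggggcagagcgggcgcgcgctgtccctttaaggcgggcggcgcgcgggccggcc
The Fzd1 window lies at chr5:4758217-4758466 on the minus strand and the Axin2 window at chr11:108920099-108920348 on the plus strand. The Axin2 start is not the outermost start of the gene. The Fzd1 window held 1 match, read on this strand as TCAAAG and beginning at position -242 from the start, and the Axin2 window held 0. The same letters occurred in 13.8% of 32851 annotated promoters of this length. GC content was 51.2% in the Fzd1 window and 69.2% in the Axin2 window. A match of letters is a description of the sequence and no evidence of binding.

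The table held 19340282 to 46569611 counts per library. LEGSKO+BSO fibers were the deepest group, at 39034309 counts or more. Defining markers of each tissue were present under its label: the summed level of 10 lens epithelium markers was 5000 to 5954 CPM (read counts relative to the scaled total of the library) in epithelia and 388 to 682 in fibers, and that of 14 fiber markers was 27151 to 51816 in epithelia and 156303 to 326868 in fibers. All marker sums are scaled within a tissue, so their sizes are not directly comparable between epithelia and fibers. The library WT fibers 1 stood apart, with 50.1% of its counts on crystallin genes, and the remaining 3 WT libraries of fibers had 27.6% to 29.6%. Markers of cornea and conjunctiva were present in epithelia and their sum differed between the conditions, at 846 to 2095 CPM in WT, 2258 to 3192 in LEGSKO and, with BSO, 2951 to 4062. All 9 markers had a count in at least 1 library of each of these groups. In every library of the group, 7 had a count for WT, 6 for LEGSKO and 7 for LEGSKO+BSO. Other lists had summed levels in epithelia of 243 to 638 CPM for retina, 175 to 272 for iris and ciliary pigment cells, 244 to 348 for vessels, 2.56 to 28.4 for immune cells and 1.86 to 21.3 for blood. Gclc did not pass the test in any of the 6 comparisons of conditions within a tissue. Its levels in epithelia were 66.6 to 95.9 CPM (WT), 44.6 to 70.5 (LEGSKO) and 63.6 to 108 (LEGSKO+BSO), and in fibers 70.4 to 135 (WT), 66.9 to 81.2 (LEGSKO) and 69.3 to 79.3 (LEGSKO+BSO). Counts over a whole gene do not check a deletion of part of it.

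Conditions were compared within each tissue, on CPM scaled within that tissue, with edgeR's quasi-likelihood F test. A gene was called when its p-value, adjusted by Benjamini-Hochberg over all genes tested, was under 0.05. Tests covered 15089 genes in epithelia, including 9 of the 10 genes, and 13436 in fibers, including 8. Genes with few counts were left out (a minimum of 10 counts in enough libraries), so Sfrp2 had too few for a test in either tissue, and Lrp5 too few in fibers. The question these comparisons address is how milder and more severe loss of glutathione alter transcript levels in each tissue. In bulk RNA, fewer cells of a type and less RNA per cell cannot be told apart.

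The results were few. By edgeR, Sfrp1 fell in LEGSKO epithelia against WT, and Fzd1 was higher in LEGSKO+BSO than in LEGSKO epithelia. Each of these calls was lost when certain single libraries were left out. In fibers edgeR called 0 of the 8 tested genes in any of the 3 comparisons, where it called 1.64% of all genes for LEGSKO against WT, 5.52% for LEGSKO+BSO against WT and 0.0298% for LEGSKO+BSO against LEGSKO. DESeq2 called Dkk3 lower in LEGSKO+BSO against WT fibers, where it called 1172 of all genes. In LEGSKO against WT epithelia it called Sfrp1, Dkk3 and Fzd1 lower, and 463 of all genes. Between the tissues, Fzd1 was far lower and Sfrp1 higher in fibers, in a comparison that called 76.4% of all genes in WT.

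**Figure D1:**
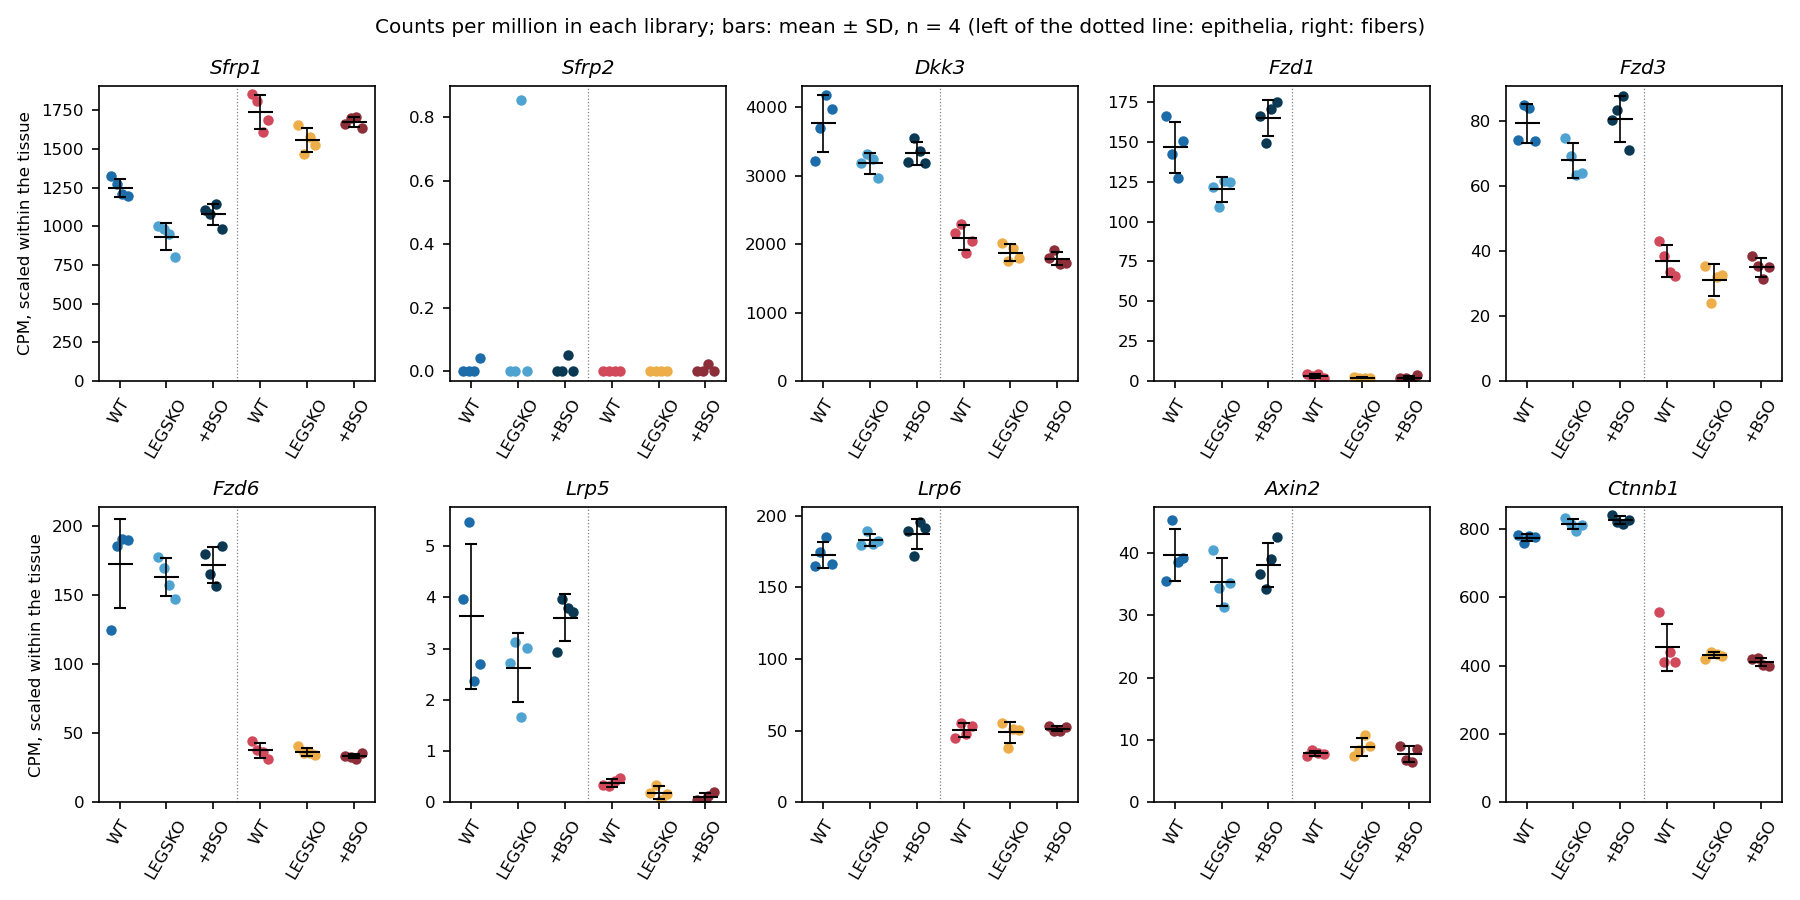
CPM (vertical axis, linear) of each of the 10 genes in each of the 24 libraries, as points, with the mean ± SD of 4 libraries except for Sfrp2. Values are scaled within a tissue, so heights left of the dotted line (epithelia) and right of it (fibers) are not comparable with each other. In the Sfrp1 panel all 4 WT epithelia points lie above all 4 LEGSKO points, and in the Fzd1 panel all 4 LEGSKO+BSO epithelia points lie above all 4 LEGSKO points.

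Sfrp1 (Entrez 20377, chr8:23411383-23449632, GRCm38) encodes a secreted antagonist that binds Wnt proteins. Its level was 1324, 1271, 1210.1 and 1196 CPM in the WT epithelia libraries, 1003, 980, 949 and 805 for LEGSKO, and 1105, 1079, 1142 and 986 for LEGSKO+BSO. Every WT library was above every library of the other 2 groups. The mean was 1250.3 ± 59.2 CPM (SD, n = 4) for WT, 934 ± 89.3 for LEGSKO and 1078 ± 66.9 for LEGSKO+BSO. Sfrp1 fell 1.34-fold in LEGSKO against WT (log2 change -0.42 ± 0.079 SE, edgeR adjusted p = 0.0220). It was the only called member of the 9 tested, in a comparison where 0.842% of all tested genes were called and 0.258% were called lower. The difference of LEGSKO+BSO from WT was smaller and not called (log2 change -0.21 ± 0.079, edgeR adjusted p = 0.214), although the groups did not overlap. LEGSKO+BSO against LEGSKO gave 0.21 ± 0.079 (edgeR adjusted p = 0.181). The call in LEGSKO was lost when any of 4 libraries was left out: WT epithelia 2 (edgeR adjusted p = 0.0804) and LEGSKO epithelia 2 (0.0512), 3 (0.0750) and 4 (0.0578). Its log2 change stayed between -0.46 and -0.36 over the 8 libraries left out in turn.

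The summed level of cornea and conjunctiva markers stood higher in LEGSKO than in WT epithelia without overlap. Of 5 tested, 4 had a positive log2 change and 1 a negative one, with 2 called higher. The sum of 13 stroma and muscle markers was also higher without overlap, at 294 to 326 CPM against 155 to 215. Of 7 tested, 3 had a positive log2 change and 4 a negative one (median -0.01, 1 called higher). Of those 13, Kera was at 0 in LEGSKO and Lum and Kera were at 0 in WT. Summed levels of lens epithelium and fiber markers overlapped between these 2 groups. The epithelium list was at 5000 to 5489 CPM in WT and 5396 to 5954 in LEGSKO. The fiber list was at 37742 to 51816 CPM in WT and 30038 to 50574 in LEGSKO. All 14 fiber markers tested had a negative log2 change by edgeR (median -0.46, 0 called, 5 with an unadjusted p under 0.05). Of all 15089 genes tested, 2132 had an unadjusted p under 0.05. The part of these other cells, or of fiber RNA, in the difference of Sfrp1 was not tested.

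In fibers, Sfrp1 stood at 1856, 1808, 1611 and 1686 CPM for WT, 1656, 1470, 1578 and 1529 for LEGSKO, and 1661, 1701, 1707 and 1637 for LEGSKO+BSO. The 3 groups overlapped. The log2 change in LEGSKO against WT was -0.16 ± 0.075 (edgeR adjusted p = 0.335). The response of Sfrp1 to LEGSKO was not shown to differ between the tissues: the difference of the log2 changes, fibers minus epithelia, was 0.25 ± 0.108 (edgeR adjusted p = 0.497).

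Dkk3 (Entrez 50781, chr7:112116019-112159482) had the highest level of the 10 genes. Its level in epithelia was 3209, 3698, 4185 and 3968 CPM for WT, 3180.3, 3320.4, 3248 and 2973 for LEGSKO, and 3204, 3548, 3368 and 3187 for LEGSKO+BSO. WT epithelia 1 lay within the range of the LEGSKO libraries, and the other 3 WT libraries lay above it. The log2 change in LEGSKO was -0.24 ± 0.084 (edgeR adjusted p = 0.192), and without WT epithelia 1 it was -0.32 ± 0.072 and called (adjusted p = 0.0490). In fibers the mean of Dkk3 was 2092 ± 182 CPM (SD, n = 4) for WT, 1876 ± 120 for LEGSKO and 1784 ± 96.9 for LEGSKO+BSO. Against WT the log2 change in LEGSKO+BSO fibers was -0.23 ± 0.086 (edgeR adjusted p = 0.134). DESeq2 called Dkk3 lower in LEGSKO epithelia (adjusted p = 0.0477) and in LEGSKO+BSO fibers (adjusted p = 0.0295).

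Sfrp2 (Entrez 20319, chr3:83765750-83774314), another secreted Wnt binder, was at 0 counts in 20 of 24 libraries. WT epithelia 4, LEGSKO+BSO epithelia 3 and LEGSKO+BSO fibers 3 had 1 count each. LEGSKO epithelia 3 had 18 counts, or 0.855 CPM, while the other 3 libraries of its group had 0. A count of 0 allows a level of up to 0.0621 to 0.167 CPM per library, taking 3 counts as the limit, which covers counting error only. In LEGSKO epithelia 3 the stroma and muscle markers summed to 306 CPM, within the range of its group.

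Fzd1 (Entrez 14362, chr5:4753839-4758216) encodes a Frizzled receptor for Wnt proteins. Its level was 166, 142, 128 and 150 CPM in WT epithelia, 122, 109, 125 and 125 for LEGSKO, and 166, 149, 170.4 and 175 for LEGSKO+BSO. All LEGSKO libraries were below all libraries of the other 2 groups, and WT and LEGSKO+BSO overlapped. Means were 147 ± 16.1, 120.2 ± 7.64 and 165 ± 11.2 CPM (SD, n = 4). Fzd1 was 1.37-fold higher in LEGSKO+BSO than in LEGSKO (log2 change 0.46 ± 0.082 SE, edgeR adjusted p = 0.0248). It was the only called member of 9, against 0.722% of all tested genes called and 0.325% called higher. LEGSKO against WT gave -0.29 ± 0.082 (edgeR adjusted p = 0.117), which DESeq2 called (adjusted p = 0.0294), and LEGSKO+BSO against WT gave 0.17 ± 0.082 (edgeR adjusted p = 0.344). Since the comparisons share libraries, the low LEGSKO values enter 2 of them.

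The call of Fzd1 was lost when LEGSKO epithelia 2 (edgeR adjusted p = 0.0820), 3 (0.0711) or 4 (0.0701), or LEGSKO+BSO epithelia 1 (0.0887), 3 (0.0849) or 4 (0.0741) was left out. It held without LEGSKO epithelia 1, on the edge of the threshold, and without LEGSKO+BSO epithelia 2. It was also lost in a fit of all 24 libraries (log2 change 0.44 ± 0.20, edgeR adjusted p = 0.239), where fiber libraries also enter the estimate of the spread. Cornea and conjunctiva markers, and lens epithelium markers, overlapped between LEGSKO and LEGSKO+BSO epithelia. Immune markers summed to 2.56 to 6.91 CPM for LEGSKO and 4.34 to 28.4 for LEGSKO+BSO, and 8 of 8 tested had a positive log2 change (median 1.72, 0 called, 3 with an unadjusted p under 0.05). Of all 15089 genes tested, 2907 had an unadjusted p under 0.05. Iris and ciliary pigment markers summed to 197 to 232 CPM and 221 to 272, and 9 of 11 tested were positive, 2 of them called higher. Of these lists Mlana was at 0 in all LEGSKO epithelia libraries. The part of these cells in the Fzd1 difference was not tested.

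In fibers Fzd1 was scarce, with 30 to 157 counts per library. It stood at 4.39, 3.18, 4.24 and 1.53 CPM for WT, 2.21, 1.85, 1.91 and 2.12 for LEGSKO, and 1.91, 1.57, 0.670 and 3.64 for LEGSKO+BSO. The groups overlapped, and the SE was large: -0.71 ± 0.404 for LEGSKO and -0.76 ± 0.390 for LEGSKO+BSO against WT on the log2 scale (edgeR adjusted p = 0.436 and 0.275). The difference between the tissues in the response of Fzd1 to LEGSKO+BSO was -0.92 ± 0.359 (edgeR adjusted p = 0.257).

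**Figure D2:**
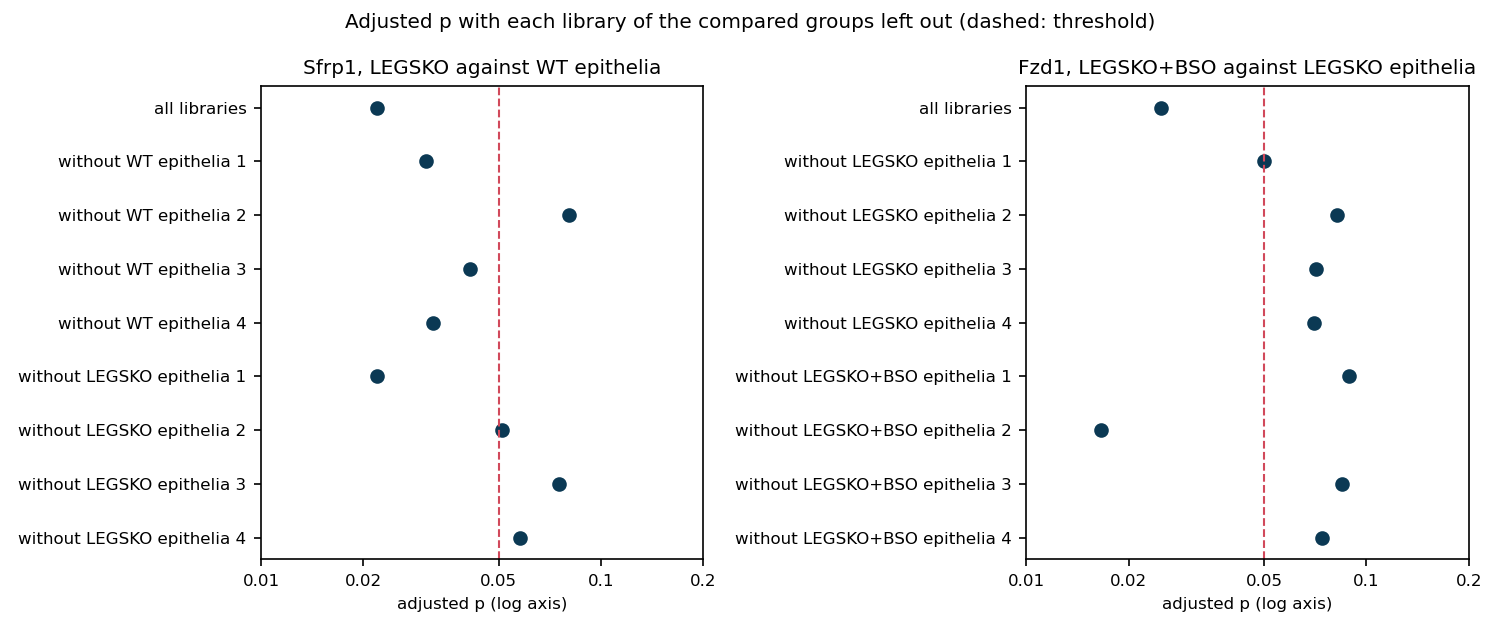
Adjusted p (horizontal log axis) of the 2 called results with all libraries and with each library of the compared groups left out in turn, as points, and the threshold of 0.05 as a dashed line. For Sfrp1, 4 of 8 points stay below the threshold, and for Fzd1, 2 of 8.

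The expression patterns most like these 2 were sought over the 12 epithelia libraries among 11868 genes, by Pearson's r of log2(CPM + 0.5). For Sfrp1 they were Ttc39c (r = 0.961), Cdca7l (0.956) and Flrt3 (0.929). Flrt3 had mean levels of 20.4, 14.3 and 17.8 CPM in WT, LEGSKO and LEGSKO+BSO epithelia. For Fzd1 they were Glmp (r = 0.927), Mtfmt (0.911) and Clcf1 (0.906). The libraries fall into 3 conditions shared by all genes, and no p is given.

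Fzd3 and Fzd6 are Frizzled receptors known mainly for planar cell polarity. Fzd3 (Entrez 14365, chr14:65192441-65262463) stood at 79.2 ± 6.01 CPM (SD, n = 4) in WT epithelia, 67.9 ± 5.39 with LEGSKO and 80.5 ± 7.06 with LEGSKO+BSO. Its groups overlapped, as LEGSKO epithelia 1 reached 74.9 CPM against 73.8 in the lowest WT library. Neither LEGSKO against WT (log2 change -0.22 ± 0.081, edgeR adjusted p = 0.216) nor LEGSKO+BSO against LEGSKO (0.25 ± 0.081, adjusted p = 0.135) was called. In fibers Fzd3 was at 36.9 ± 5.0, 31.0 ± 4.88 and 35.0 ± 2.90 CPM.

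Fzd6 (Entrez 14368, chr15:39006149-39038192) stood at 125, 186, 191 and 190.3 CPM in WT epithelia. WT epithelia 1 was below every other epithelia library, including all LEGSKO (147 to 178) and LEGSKO+BSO libraries (157 to 186). The log2 change in LEGSKO was -0.08 ± 0.116 (edgeR adjusted p = 0.785) with all libraries and -0.22 ± 0.080 without WT epithelia 1 (adjusted p = 0.186). In that library cornea and conjunctiva markers summed to 846 CPM, against 1561 to 2095 in the other WT epithelia, and retina markers to 638 CPM, the highest of the epithelia. Their part in the Fzd6 value was not tested. In fibers Fzd6 was at 37.7 ± 5.26, 36.5 ± 2.82 and 33.6 ± 1.64 CPM in the 3 conditions.

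Lrp6 (Entrez 16974, chr6:134446476-134566913) was the main co-receptor transcript. It stood at 173 ± 9.14 CPM (SD, n = 4) for WT, 183 ± 4.29 for LEGSKO and 187 ± 10.6 for LEGSKO+BSO epithelia, and at 50.4 ± 4.79, 48.9 ± 7.41 and 51.5 ± 1.8 CPM in fibers of the same conditions. Its log2 change was 0.08 ± 0.061 in LEGSKO epithelia (edgeR adjusted p = 0.576) and -0.05 ± 0.10 in LEGSKO fibers (adjusted p = 0.877).

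Lrp5 (Entrez 16973, chr19:3584825-3686585) stood at 3.97, 5.48, 2.36 and 2.69 CPM in WT epithelia, 2.63 ± 0.668 in LEGSKO and 3.60 ± 0.461 in LEGSKO+BSO. The log2 change in LEGSKO was -0.46 ± 0.270 (edgeR adjusted p = 0.471). In fibers the Lrp5 counts were 6, 10, 11 and 14 for WT, 5, 8, 1 and 4 for LEGSKO, and 2, 1, 6 and 9 for LEGSKO+BSO. Scaled, the WT fibers held 0.315 to 0.476 CPM and LEGSKO+BSO fibers 0.0207 to 0.208, so these groups did not overlap at counts that stayed under the minimum for a test. Without that minimum the log2 change was -1.88 ± 0.656 (edgeR adjusted p = 0.128). In the fit of all 24 libraries Lrp5 passed the minimum only through epithelia, and the difference between the tissues in its response to LEGSKO+BSO was -1.90 ± 0.608 and not called (edgeR adjusted p = 0.163).

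Axin2 (Entrez 12006, chr11:108917828-108950783), both an inhibitor of beta-catenin and its transcriptional target, stood at 35.5, 45.3, 38.5 and 39.1 CPM in WT epithelia, 40.4, 34.3, 31.3 and 35.2 for LEGSKO, and 36.5, 34.2, 39 and 42.5 for LEGSKO+BSO. The 3 groups overlapped. The log2 change was -0.16 ± 0.095 in LEGSKO (edgeR adjusted p = 0.460) and -0.06 ± 0.094 in LEGSKO+BSO (adjusted p = 0.833). In fibers Axin2 was at 7.89 ± 0.386 CPM (SD, n = 4) for WT, 8.90 ± 1.39 for LEGSKO and 7.72 ± 1.25 for LEGSKO+BSO, with log2 changes of 0.17 ± 0.131 and -0.03 ± 0.128 against WT (edgeR adjusted p = 0.576 and 0.910).

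Ctnnb1 (Entrez 12387, chr9:120933400-120960507) stood at 781, 758, 779 and 775 CPM in WT epithelia, 832, 815, 795 and 811 for LEGSKO, and 839, 818, 813 and 827 for LEGSKO+BSO. All WT libraries were below all libraries of the other 2 groups, but the differences were small. The log2 changes were 0.07 ± 0.055 and 0.09 ± 0.055 (edgeR adjusted p = 0.587 and 0.462). In fibers WT fibers 1 reached 555 CPM, and the other 11 libraries lay between 399 and 440. The log2 change in LEGSKO fibers was -0.08 ± 0.088 with WT fibers 1 and 0.03 ± 0.059 without it, and neither was called (edgeR adjusted p = 0.720 and 0.859).

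**Figure D3:**
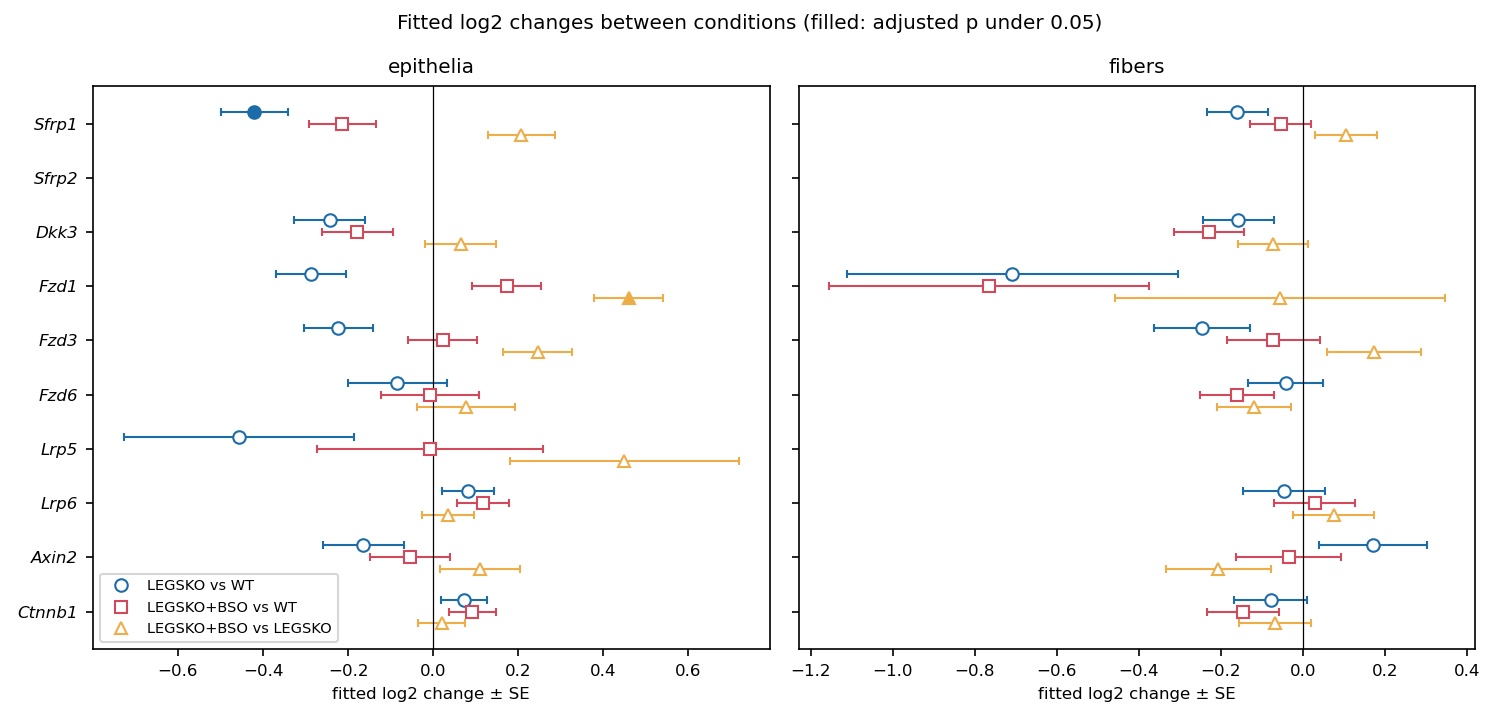
Fitted log2 change ± SE (horizontal axis) of each tested gene in the 3 comparisons of conditions, in epithelia (left) and fibers (right), with filled symbols for an adjusted p under 0.05. The filled symbols are Sfrp1 in LEGSKO against WT (-0.42) and Fzd1 in LEGSKO+BSO against LEGSKO (0.46), both in epithelia.

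Counted over the members, LEGSKO+BSO against WT epithelia gave 0 calls of 9 tested by edgeR, with 1 unadjusted p under 0.05 (Sfrp1) and 0 calls by DESeq2, where 1.17% of all genes were called. In fibers, LEGSKO against WT gave 0 of 8 by edgeR, with 0 unadjusted p under 0.05 and 0 calls by DESeq2, against 1.64% of all genes. LEGSKO+BSO against WT fibers gave 0 of 8 by edgeR, with 1 unadjusted p under 0.05 and 1 call by DESeq2 (Dkk3 in both cases), against 5.52% of all genes. LEGSKO+BSO against LEGSKO fibers gave 0 of 8 by edgeR, with 0 unadjusted p under 0.05 and 0 calls by DESeq2, against 0.0298% of all genes. These shares of all genes count edgeR calls. An unadjusted p under 0.05 was found for 2232 of all 15089 genes in the epithelia comparison. In the 3 fiber comparisons, in the order given, it was found for 2011, 2887 and 1412 of 13436. DESeq2 called 580 of all genes in the epithelia comparison, and 514, 1172 and 80 in fibers. The median log2 change of the tested members was -0.22 in LEGSKO epithelia, -0.01 in LEGSKO+BSO epithelia, -0.12 in LEGSKO fibers and -0.11 in LEGSKO+BSO fibers, each against WT. Over all tested genes the medians in these 4 comparisons were between -0.011 and -0.0056. For LEGSKO+BSO against LEGSKO, log2 changes of members were positive for 9 of 9 in epithelia (median 0.11, and 0.0012 over all genes, 1 called) and for 3 of 8 in fibers (median -0.06, and -0.0041 over all genes). The tests of a difference between tissues called 0 of 9 members for LEGSKO by edgeR (0.103% of all genes, 1 unadjusted p under 0.05) and 0 of 9 for LEGSKO+BSO (0.276% of all genes, 3 unadjusted p under 0.05), and DESeq2 called 0 in both. Of all 15560 genes, 1410 had an unadjusted p under 0.05 for LEGSKO and 2121 for LEGSKO+BSO.

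Levels between genes were compared as CPM per kilobase of exon. In WT epithelia Dkk3 stood at 1121 ± 125 (SD, n = 4), rank 18 of 14085 genes, Sfrp1 at 286 ± 13.5, rank 87, and Ctnnb1 at 149 ± 2.00, rank 177. Fzd6 (35.9 ± 6.65) and Fzd1 (34.9 ± 3.84) did not differ beyond their spread. Lrp6 followed at 12.6 ± 0.669, then Axin2 at 7.19 ± 0.748 and Fzd3 at 6.19 ± 0.470, whose ranges overlapped, and Lrp5 was lowest of the tested members at 0.372 ± 0.145. In WT fibers, by the same measure, the order was Dkk3 (623 ± 54.3), Sfrp1 (398 ± 25.6), Ctnnb1 (87.5 ± 13.3), Fzd6 (7.82 ± 1.09), Lrp6 (3.69 ± 0.350), Fzd3 (2.88 ± 0.390), Axin2 (1.43 ± 0.0701), Fzd1 (0.794 ± 0.314) and Lrp5 (0.0394 ± 0.00761), so Fzd1 moved from level with Fzd6 to near the end. Lrp6 and Fzd3 were the only neighbours in that order whose ranges overlapped, at 3.28 to 4.04 and 2.52 to 3.37.

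Ratios taken within a library do not depend on its scaling. Per kilobase, the ratio of Sfrp1 to Dkk3 was 0.259 ± 0.0428 (SD, n = 4) for WT epithelia, 0.225 ± 0.0141 for LEGSKO epithelia and 0.249 ± 0.0159 for LEGSKO+BSO epithelia, and 0.640 ± 0.0267, 0.638 ± 0.0126 and 0.723 ± 0.0368 for fibers of the same conditions. Fibers of every condition were above epithelia of every condition. The ratio of Fzd1 to Fzd6 was 1.02 ± 0.343 in WT epithelia and 0.0995 ± 0.0333 in WT fibers, and that of Lrp6 to Lrp5 was 38.0 ± 14.8 in WT epithelia.

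The series' text compares samples only within a tissue, so the comparison of fibers with epithelia is an added one, made on CPM scaled over all 24 libraries. It called 8 of 9 tested members in WT, 3 higher and 5 lower in fibers, where 76.4% of all genes were called, 37% higher and 39.4% lower. In LEGSKO it called 8 of 9 (75.8% of all genes), and in LEGSKO+BSO 7 of 9 (78.9%), so these shares are near the background. Fzd1 stood at 99.1 ± 10.1 CPM in WT epithelia and 4.92 ± 1.95 in WT fibers. It was lower in fibers by 20.7-fold in WT, by 27.5-fold in LEGSKO and by 39-fold in LEGSKO+BSO (log2 change -4.37 ± 0.256, -4.78 ± 0.273 and -5.29 ± 0.260, edgeR adjusted p at most 6.36e-14). Lrp5, at 2.45 ± 0.958 CPM in WT epithelia and 0.566 ± 0.110 in WT fibers, is counted among the members called lower, but it passed the minimum only through epithelia and so had to be lower in fibers. Axin2, Fzd6 and Lrp6 were lower by smaller factors, with log2 changes in WT of -1.20 ± 0.118, -1.08 ± 0.113 and -0.65 ± 0.084 (edgeR adjusted p at most 1.55e-07). Sfrp1 was the member that was higher in fibers by most, from 845 ± 37.3 CPM to 2565 ± 158 in WT, or 3.03-fold (log2 change 1.60 ± 0.078, edgeR adjusted p = 2.00e-15), and it was 3.60-fold higher in LEGSKO fibers and 3.40-fold higher in LEGSKO+BSO fibers. Without WT fibers 1 the WT log2 change of Sfrp1 was 1.55 and that of Fzd1 was -4.53.

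The direction of the smaller differences depended on the scaling. Under edgeR's TMM, Dkk3 was 0.28 ± 0.088 higher in WT fibers on the log2 scale (edgeR adjusted p = 0.00688) and Ctnnb1 0.36 ± 0.075 higher (adjusted p = 0.000141, and 0.22 without WT fibers 1), while Fzd3 was at 0.02 ± 0.103 (adjusted p = 0.883). When libraries were scaled by total counts only, Dkk3 was at -0.89 ± 0.128, Ctnnb1 at -0.84 ± 0.088 and Fzd3 at -1.17 ± 0.130, each called lower. That scaling moved the median log2 change of all genes from -0.09 to -1.25 in WT, and the share of calls that were higher in fibers from 48.4% to 14.7% (in LEGSKO from 48.6% to 15.8%, and with BSO from 48.3% to 17.2%). Relative to that median, Dkk3 and Ctnnb1 lay above it and Fzd3 close to it under both scalings. Sfrp1 was called higher under both (0.43 ± 0.118 by total counts in WT). Fzd1, Fzd6, Lrp5, Lrp6 and Axin2 were lower under both, with Fzd1 at -5.56 ± 0.290 by total counts in WT. In LEGSKO, Ctnnb1 was 0.19 ± 0.075 higher (edgeR adjusted p = 0.0243), a call lost under 5 of the 8 other settings (DESeq2, its size factors, no filter, a stricter filter and the 8 libraries alone) and reversed by total counts. It was also lost without LEGSKO epithelia 3 (edgeR adjusted p = 0.0608) or LEGSKO fibers 2 (0.0577).

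**Figure D4:**
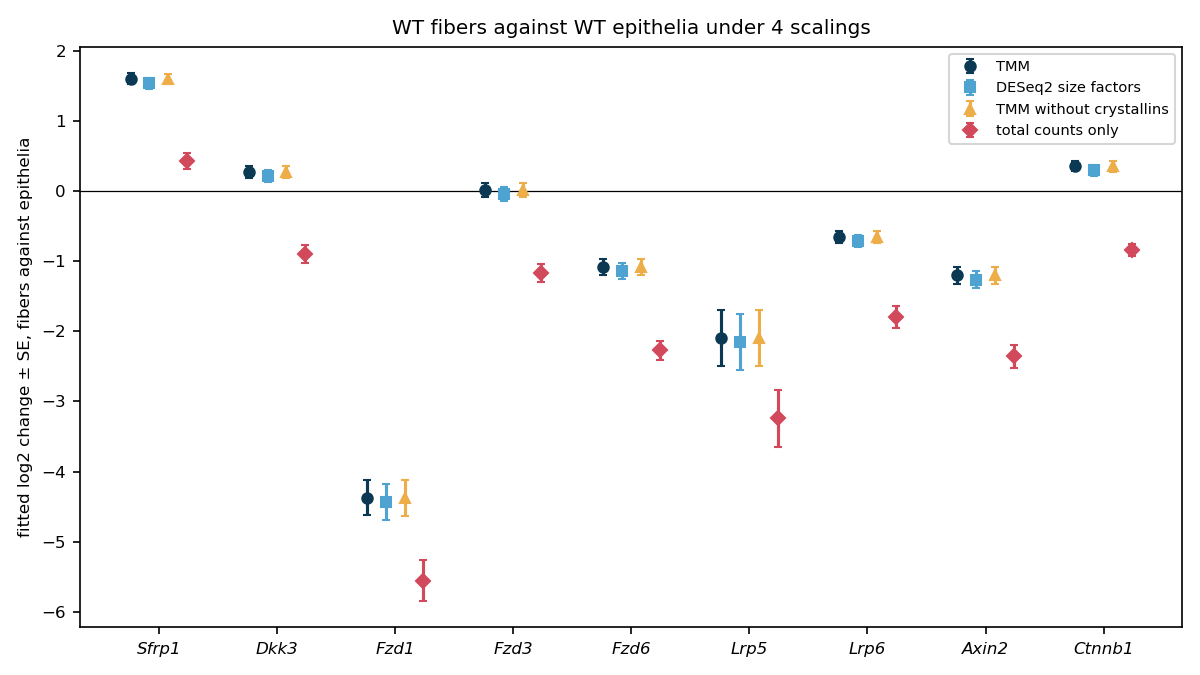
Fitted log2 change ± SE (vertical axis) of 9 genes in WT fibers against WT epithelia under 4 ways of scaling the libraries. Under total counts only (diamonds) all 9 lie lower than under the other 3 scalings, and Dkk3, Fzd3 and Ctnnb1 lie below 0, while Sfrp1 lies above 0 and Fzd1, Fzd6, Lrp5, Lrp6 and Axin2 below 0 under all 4.

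The rest of the Wnt pathway was read from 9 lists that hold 122 other genes, of which 94 were tested in epithelia and 81 in fibers. In LEGSKO against WT epithelia, edgeR called 0 of 94, and 0.842% of all genes. Of the 94, 19 had an unadjusted p under 0.05, and of all 15089 genes 2132 did. DESeq2 called 5 of the 94, and 463 of all genes. In LEGSKO against WT fibers, edgeR called 0 of 81, and 1.64% of all genes. Of the 81, 11 had an unadjusted p under 0.05, and of all 13436 genes 2011 did. DESeq2 called 2 of the 81, and 514 of all genes. In LEGSKO+BSO against LEGSKO epithelia, edgeR called 0 of 94, and 0.722% of all genes. Of the 94, 22 had an unadjusted p under 0.05, and of all 15089 genes 2907 did. DESeq2 called 4 of the 94, and 680 of all genes. In LEGSKO+BSO against LEGSKO fibers, edgeR called 0 of 81, and 0.0298% of all genes. Of the 81, 10 had an unadjusted p under 0.05, and of all 13436 genes 1412 did. DESeq2 called 2 of the 81, and 80 of all genes. In LEGSKO+BSO against WT, 2 of 94 were called in epithelia, both higher, or 2.13% against 1.17% of all genes called and 0.795% called higher, and 8 of 81 in fibers, or 9.88% against 5.52% of all genes. Of those 8 in fibers, 6 were higher and 2 lower, against 3.05% of all genes called higher and 2.47% called lower. DESeq2 called 5 in epithelia (4 higher and 1 lower) and 12 in fibers (10 higher and 2 lower) in these comparisons. Over all genes it called 580 in epithelia and 1172 in fibers. In LEGSKO+BSO against WT fibers, 2887 of all 13436 genes had an unadjusted p under 0.05. By list, with the tested members counted in and some genes in more than 1 list, the calls in LEGSKO+BSO fibers were 2 of 7 ligands, 2 of 15 receptors (1 higher and 1 lower), 2 of 13 nuclear factors, 1 of 10 beta-catenin targets and 1 of 21 planar polarity genes, and 0 of 18 genes of the beta-catenin destruction complex (3 with an unadjusted p under 0.05) and 0 of 5 antagonists (2 with an unadjusted p under 0.05).

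Wnt5b, a ligand known mainly for signalling without beta-catenin, rose in both tissues in LEGSKO+BSO against WT. It stood at 114, 101, 112 and 127 CPM in WT epithelia and 146, 147, 148 and 149 in LEGSKO+BSO epithelia, 1.30-fold higher (log2 change 0.38 ± 0.070, edgeR adjusted p = 0.0173). In fibers it stood at 78.6, 63.1, 70.5 and 70.8 CPM in WT and 104, 85.9, 113 and 105 in LEGSKO+BSO, 1.44-fold higher (log2 change 0.53 ± 0.087, edgeR adjusted p = 0.00373). Neither pair of groups overlapped. The LEGSKO mean without BSO lay between, at 121 ± 7.69 CPM in epithelia and 82.9 ± 4.65 in fibers (SD, n = 4), and was not called against WT (edgeR adjusted p = 0.592 and 0.224). The fiber call held without each of the 8 libraries, and the epithelia call was lost without WT epithelia 2, LEGSKO+BSO epithelia 1 or LEGSKO+BSO epithelia 3 (edgeR adjusted p up to 0.0635). Cornea and conjunctiva markers were higher in LEGSKO+BSO than in WT epithelia without overlap, and in fibers they overlapped (up to 30.8 CPM in WT and 13.8 to 68.9 in LEGSKO+BSO). The sum of stroma and muscle markers was also higher without overlap in both tissues. It was 155 to 215 CPM in WT and 258 to 304 in LEGSKO+BSO epithelia, and 504 to 578 and 607 to 744 in fibers. Of 7 tested in epithelia, 5 had a positive log2 change and 2 a negative one. Of 4 tested in fibers, 3 had a positive log2 change and 1 a negative one. In each tissue 1 of them was called higher. In fibers, summed immune markers (0.899 to 1.70 CPM in WT and 3.62 to 5.38 in LEGSKO+BSO) and vessel markers (73.2 to 104 and 109.5 to 118) did not overlap either. The 2 immune markers tested had a positive log2 change, 1 of them called higher. Of 3 vessel markers tested, 2 had a positive log2 change and 1 a negative one, with 0 called. Of the immune list, Aif1, Cd74, C1qa, C1qb and C1qc were at 0 in WT fibers, and Kdr and Cldn5 of the vessel list and Dcn, Lum and Kera of the stroma and muscle list were at 0 in fibers of both groups. The part of these cells in the Wnt5b values, and in the other changes of LEGSKO+BSO fibers, was not tested.

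Tcf7l1, a TCF factor known mostly as a repressor of beta-catenin targets, stood at 6.78, 6.77, 5.96 and 6.76 CPM in WT fibers and 10.2, 9.36, 11.7 and 11.6 in LEGSKO+BSO fibers. It rose 1.64-fold (log2 change 0.71 ± 0.097, edgeR adjusted p = 0.00110), and the call held without each of the 8 libraries. In epithelia the same contrast gave 0.12 ± 0.084 (edgeR adjusted p = 0.519). The difference between the tissues was 0.59 ± 0.125 (edgeR adjusted p = 0.0438), and Tcf7l1 was the only other Wnt gene of 95 that edgeR called for it, where 0.161% of all genes were called higher. DESeq2 called 3 (Ankrd6, Prickle4 and Tcf7l1). Of 16 libraries left out in turn, that call held without WT epithelia 1 or 4, WT fibers 1, LEGSKO+BSO epithelia 2 or LEGSKO+BSO fibers 2, and was lost without any of the other 11 (edgeR adjusted p up to 0.0898). The call was also lost with a replicate block. Tcf7l1 was 34.1 to 40.9 CPM in WT epithelia on that tissue's own scale, and the lens epithelium markers in fibers summed to 388 to 465 CPM in WT and 543 to 661 in LEGSKO+BSO, without overlap. Of 9 of these markers tested, 6 had a positive log2 change and 3 a negative one (median 0.06, 1 called higher). The part of epithelial RNA in the Tcf7l1 rise, and in the other changes of LEGSKO+BSO fibers, was not tested.

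Tle1, a co-repressor that binds TCF factors, rose in LEGSKO+BSO fibers from 8.93 ± 0.327 to 11.9 ± 0.778 CPM (log2 change 0.41 ± 0.080, edgeR adjusted p = 0.0106). Among receptors, Fzd5 rose from 4.42 ± 0.874 to 7.65 ± 1.40 CPM (log2 change 0.78 ± 0.162, edgeR adjusted p = 0.0148) and Fzd4 fell from 3.59 ± 0.488 to 1.88 ± 0.378 CPM (-0.92 ± 0.207, adjusted p = 0.0203). The Fzd4 call was lost without LEGSKO+BSO fibers 1, 3 or 4 (edgeR adjusted p up to 0.0720), and the Tle1 and Fzd5 calls held without each library. Prickle4, of the planar polarity list, fell from 8.05 ± 1.84 to 5.39 ± 0.415 CPM (log2 change -0.57 ± 0.146, edgeR adjusted p = 0.0365) and Dvl1, a cytoplasmic relay of Frizzled signals, rose in LEGSKO+BSO epithelia from 42.1 ± 3.54 to 53.2 ± 3.34 CPM (0.34 ± 0.070, adjusted p = 0.0335). The Prickle4 call held only without WT fibers 1 or 2 (edgeR adjusted p up to 0.0958 without the others), and the Dvl1 call only without WT epithelia 4 or LEGSKO+BSO epithelia 2 (up to 0.126). Ccnd1 (log2 change 0.39, edgeR adjusted p = 0.0341) and Wnt7a (0.24, adjusted p = 0.0355) were the other 2 of the 8 called in LEGSKO+BSO fibers. They fall outside the naming rule, are named because they complete that count, and depended on most libraries: Ccnd1 held only without WT fibers 1 (edgeR adjusted p up to 0.0854), and Wnt7a only without WT fibers 1, WT fibers 4 or LEGSKO+BSO fibers 2 (up to 0.110).

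**Figure D5:**
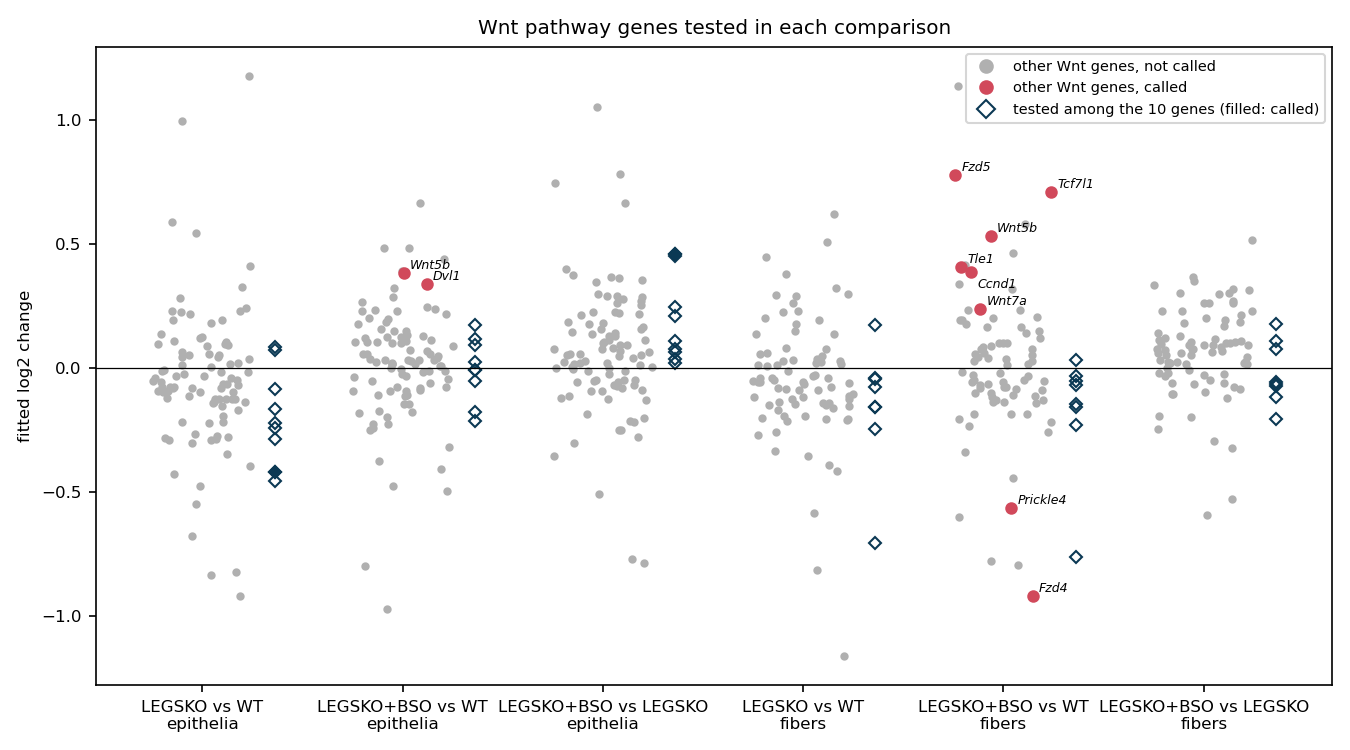
Fitted log2 change (vertical axis) of the other Wnt genes tested in each comparison of conditions (circles, red and labelled where called) and of the tested genes among the 10 (diamonds, filled where called). Red circles appear in the 2 comparisons of LEGSKO+BSO with WT, 2 in epithelia and 8 in fibers.

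Between the tissues in WT, 84 of the 95 other Wnt genes tested were called, or 88.4%, with 32 higher and 52 lower in fibers under TMM, where 76.4% of all genes were called, 37% higher and 39.4% lower. By total counts 6 were higher and 76 lower, against 1982 and 11462 of all 15560 genes tested. A gene that passed the minimum through only 1 tissue had to differ: of the 95, 81 were also tested within fibers, and so were 15 of 17 receptors, 10 of 16 beta-catenin targets and 7 of 8 ligands, so nothing is read from these counts. The 17 receptors and co-receptors, 5 of the 10 genes included, had 1 called higher and 13 lower, the 16 targets 3 and 13, and the 8 ligands 5 and 1 under TMM but 1 and 5 by total counts. Besides Fzd1, the Frizzled receptors Fzd2 (14.0-fold) and Fzd7 (12.4-fold) were lower in fibers, and so were Tspan12 (8.81-fold) and Ptk7 (7.84-fold). All of these were also tested within fibers. The antagonist Draxin was 17.2-fold lower and the target Myc 13.3-fold lower. The naming of Draxin and Myc did not require that they pass the minimum within fibers. A gene kept only through epithelia had to be lower in fibers, so nothing is read from their folds. Among other Wnt genes with an average log2 CPM of at least 1, the largest fold upward was that of Prickle1, a planar polarity gene, at 14.2-fold higher in WT fibers (log2 change 3.83 ± 0.151) and 6.18-fold by total counts. The other higher genes were also higher by total counts, by smaller folds. Cd44, a target that encodes a cell surface receptor, was 5.48-fold higher under TMM and 2.47-fold by total counts. Tle5 was 4.49-fold and 1.95-fold higher, the ligand Wnt7a 4.39-fold and 1.97-fold, Prickle4 4.11-fold and 1.79-fold, and the target Tnfrsf19 3.70-fold and 1.66-fold.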

How the data were processed

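The deposited file is 1 table of raw read counts per gene, which the authors made for 24415 Entrez genes in 24 libraries. The submitters' processing notes name TopHat, DESeq, bcl2fastq and CASAVA 1.8, and build mm10 (GRCm38). The sources used here do not give the counting tool or its strand setting, so reads of overlapping genes on opposite strands cannot be told apart. Symbols and coordinates came from a RefSeq gene table of that build, which matched 24334 genes, and the other 81 held 0.914% of counts and stayed in the fits.

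Counts were fitted in R 4.3.3 with edgeR 4.0.16 (TMM scaling, filterByExpr with a minimum count of 10 and total of 15, two-sided quasi-likelihood F tests, Benjamini-Hochberg adjustment, threshold 0.05). Each tissue's 12 libraries formed 1 fit, and all 24 libraries in 6 groups formed the fit for tissue comparisons and for differences between tissues in a response. CPM divide each count by the scaled library total. Alternatives were DESeq2 1.42.0 and its size factors, other filters, total counts only, crystallins left out, a replicate block, other sets of libraries, and each library left out.

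The 10 genes and all lists were chosen with earlier results of these data known. The other Wnt genes named were, for each comparison of conditions, at most 4 higher and 4 lower called genes with the smallest adjusted p, and, for each tissue comparison, at most 6 in each direction with the largest fold among those with an average log2 CPM of at least 1, given here for WT.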

Additional observations from a re-analysis of the deposited data

Results flagged for a closer look

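In 58 groups of 4 libraries, 1 for each gene and group with values that differ, the highest or lowest library was compared with the rest, and chance alone sets about 1 in 20 such groups apart. Sfrp2 had a library far from the other 3, all at 0, in 4 groups: WT epithelia 4 at 0.0434 CPM, LEGSKO epithelia 3 at 0.855, LEGSKO+BSO epithelia 3 at 0.0505 and LEGSKO+BSO fibers 3 at 0.0223. With the other 3 libraries at 0, any count at all sets a library apart. In 3 of these groups it was 1 count, under the limit of 3 counts that a count of 0 allows, and in LEGSKO epithelia 3 it was 18. Retina markers in LEGSKO epithelia 3 summed to 519 CPM, against 251 to 425 in the rest of its group, and their part in the Sfrp2 count was not tested. Fzd6 was low in WT epithelia 1, at 125 CPM against 186 to 191 in the other 3.

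The response of Tcf7l1 to LEGSKO+BSO against WT was called different between the tissues, by 0.59 on the log2 scale (edgeR adjusted p = 0.0438). Over the 16 libraries left out in turn the edgeR adjusted p ran from 0.0286 to 0.0898. The call was lost in 11 of these fits, and also with a replicate block, so it is near the threshold.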

How the results depend on the processing

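Of the results for the 10 genes within a tissue, 397 kept their side of the threshold with 1 library left out, 10 calls were lost and 1 gained. Under the other settings 401 did, with 1 lost and 3 gained. A result called in neither fit counts here as kept even where its direction changed. For the tissue comparisons 211 and 199 did, 5 and 8 calls were lost and 2 gained. The 7 reversals all came from scaling by total counts only: Dkk3 at -0.89, -0.75 and -0.83 in WT, LEGSKO and LEGSKO+BSO, Ctnnb1 at -0.84, -0.91 and -0.94, and Fzd3 at -1.17 in WT, on the log2 scale. Dkk3 in the LEGSKO+BSO tissue comparison lost its call under DESeq2's size factors (0.0917), the stricter filter of 50 counts (0.117) and without LEGSKO+BSO epithelia 1 (0.0513), fibers 2 (0.0679) or fibers 4 (0.0711), and in WT it did with only the 8 libraries compared (0.112), as edgeR adjusted p.

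DESeq2 called more genes than edgeR: 463 in LEGSKO against WT epithelia, 580 in LEGSKO+BSO against WT epithelia, 680 in LEGSKO+BSO against LEGSKO epithelia, and in the same order 514, 1172 and 80 in fibers, and 83 and 293 for the differences between tissues in LEGSKO and LEGSKO+BSO. It called 3 members in LEGSKO epithelia and 1 in LEGSKO+BSO fibers against WT. LEGSKO+BSO against LEGSKO fibers gave 14 calls with no low-count filter, 1 with the stricter filter, 7 with all 24 libraries in 1 fit and 56 with only the 8 libraries compared. That last setting gave 62 for LEGSKO+BSO against WT epithelia, and 85 and 417 for LEGSKO and LEGSKO+BSO against WT fibers. The fit of 24 libraries gave 250 for LEGSKO+BSO against LEGSKO epithelia, with 0 members, and 1 member in LEGSKO+BSO against WT fibers (Lrp5, which passed the minimum only through epithelia). The stricter filter gave 75 for the tissue difference in LEGSKO+BSO. The cause of these moves was not tested.

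With 1 library left out, calls ranged from 40 (without WT epithelia 2) to 183 (without WT epithelia 1) in LEGSKO against WT epithelia, with 0 to 2 members, from 41 (without LEGSKO+BSO epithelia 1) to 324 (without LEGSKO+BSO epithelia 2) in LEGSKO+BSO against WT, and from 0 (without LEGSKO epithelia 2) to 442 (without LEGSKO+BSO epithelia 2) in LEGSKO+BSO against LEGSKO, with 0 to 1 members. In fibers, by the same order of comparisons, they ranged from 61 (without LEGSKO fibers 3) to 591 (without WT fibers 1), from 285 (without LEGSKO+BSO fibers 3) to 1075 (without WT fibers 1), and from 1 to 7, with 0 members. Tissue comparisons ranged from 11631 to 11893 in WT (8 members), 11441 to 11582 in LEGSKO (7 to 8) and 11993 to 12167 in LEGSKO+BSO (6 to 7), and the differences between tissues from 4 to 46 and from 12 to 94.

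Between conditions of a tissue, same-numbered libraries did not pair: the correlations of their deviations from the group means ran from -0.275 to 0.255. Between the tissues of a condition they ran from 0.0613 to 0.248 in WT and from -0.0553 to 0.0561 in LEGSKO. In LEGSKO+BSO they were 0.0688 to 0.157, and only there did all 4 libraries match their own number best. The labels do not say whether same-numbered epithelia and fibers share an animal, and the main tests of tissues treat them as separate. A replicate block gave 46 calls in LEGSKO+BSO against LEGSKO epithelia, 143 in LEGSKO against WT fibers, 2 in LEGSKO+BSO against LEGSKO fibers and 10 for the tissue difference in LEGSKO. It changed no call of the 10 genes, and with it Tcf7l1 lost its tissue difference (edgeR adjusted p = 0.0669), Ccnd1 (0.0539), Wnt7a (0.0582) and Prickle4 (0.0546) lost their calls in LEGSKO+BSO fibers, and Gclc was called lower in LEGSKO epithelia (0.0111) and higher in LEGSKO+BSO than in LEGSKO epithelia (0.0145). Sfrp2 in both tissues and Lrp5 in fibers had too few counts for a test, and the cause of the large SE of Fzd1 in fibers was not tested.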
